A study of Mus musculus with 12 samples.

Results

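The 9 genes described here, Lrp8, Scly, Sephs1, Sephs2, Pstk, Sepsecs, Trnau1ap, Secisbp2 and Eefsec, encode the proteins that supply selenium, make selenocysteine on its transfer RNA and insert it during translation. They were taken by gene symbol from a read count table of 55137 gene identifiers, in which each of the 9 had 1 line, and all 9 had enough counts to be tested. The cells were CMT-93, an epithelial line from a carcinoma of the mouse rectum, and the study combined PTSO with antigens from the whipworm of mice, Trichuris muris. The 4 groups of 3 libraries were PTSO + T. muris (20 µM PTSO, then antigens at 100 µg/mL), PTSO (20 µM, no antigens), T. muris (vehicle, then antigens at 100 µg/mL) and Control (vehicle, no antigens). PTSO or vehicle was added 30 min ahead of the antigens, and the harvest followed at 6 h. The design text writes the compound as PTSO-PTS, the series title calls it garlic extract and names LPS in place of the antigens, and the groups are those of the sample labels. All libraries came from 1 cell line, and since separate cultures within a group are not stated, p-values measure only the spread between these samples.

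Selenocysteine is encoded by UGA, which otherwise ends translation, and has no transfer RNA that is charged with it directly. Selenium reaches cells largely as selenoprotein P, taken up through receptors such as LRP8, and selenocysteine lyase (SCLY) frees selenium from selenocysteine. SEPHS2 turns selenide into selenophosphate, PSTK phosphorylates the serine carried by tRNA(Sec), and SEPSECS exchanges that phosphate for selenium. SECISBP2 binds the SECIS hairpin in the 3′ untranslated part of selenoprotein mRNAs, and the elongation factor EEFSEC then brings the charged tRNA(Sec) to the UGA. In the intestinal epithelium the best known products are glutathione peroxidases and thioredoxin reductases, which reduce peroxides and thioredoxin.

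SEPHS2 is a selenoprotein itself, and its mRNA therefore needs the machinery that it serves. Of the 9 genes, only Sephs2 had an annotated selenocysteine codon, at codon 63 of 452, and it is the gene on which the results below turn. Its paralog SEPHS1 lacks selenocysteine and does not make selenophosphate. The coding stretch around this codon is shown for Sephs2, with the aligned stretch of Sephs1 (codon 29 of 392) and those of the 3 selenoprotein genes with the largest called rises with PTSO averaged over both antigen conditions. Selenow has its selenocysteine at codon 13 of 88, Selenoh at codon 38 of 116 and Gpx1 at codon 47 of 201. Each sequence gives 30 bases on either side of the codon, 5′ to 3′ on the coding strand as DNA, from GENCODE M21 transcripts on GRCm38. Capitals mark the selenocysteine codon or, in Sephs1, the codon aligned to it.
Sephs2, chr7:127273701-127273763, minus strand: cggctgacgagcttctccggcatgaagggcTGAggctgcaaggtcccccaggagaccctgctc
Sephs1, chr2:4884467-4884529, plus strand: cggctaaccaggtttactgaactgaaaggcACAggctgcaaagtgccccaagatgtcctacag
Selenow, chr7:15920344-15922274, minus strand, spliced: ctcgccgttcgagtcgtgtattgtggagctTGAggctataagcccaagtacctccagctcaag
Selenoh, chr2:84670351-84670505, minus strand, spliced: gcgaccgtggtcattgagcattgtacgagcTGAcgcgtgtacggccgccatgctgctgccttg
Gpx1, chr9:108339421-108339483, plus strand: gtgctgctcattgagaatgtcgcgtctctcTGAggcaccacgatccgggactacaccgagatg

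Total counts of a library lay between 19.6 and 26.1 M for PTSO + T. muris, between 23.0 and 30.3 M for PTSO, between 16.7 and 34.5 M for T. muris and between 24.6 and 25.9 M for Control. The 9 genes together took 0.0256% to 0.0295% of the counts of a library. Control libraries 2 and 3 stood apart, at -35.4 and -41.5 on the component with 19.6% of the variance, against -3.58 to 23.0 for the other 10 libraries, so the values that rest on controls are repeated without them below. All 10 epithelial markers were tested, and their summed level was 9223 to 9925 CPM in every library, where CPM are read counts scaled to a common library size. This sum was uneven: Krt8 had 890385 counts over all 12 libraries, while the lowest of the list, Vil1, Cdx2 and Krt20, had 1093, 263 and 153. The 8 leukocyte markers summed to 40.7 to 45.8 CPM with PTSO + T. muris, 39.9 to 49.0 with PTSO, 47.4 to 49.3 with T. muris and 52.2 to 55.2 in Control. Nearly all of that sum was Cd14, while Ptprc and Cd3e had 11 and 3 counts over all 12 libraries. The 8 fibroblast and endothelial markers summed to 3.3 to 5.0 CPM, with Col3a1 and Dcn at 0. Every sum with PTSO, with antigens or with both lay below the Control range of leukocyte marker sums, and the part of this in the Sephs2 result was not tested.

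Levels between genes were compared as CPM per kilobase of annotated exons, since longer genes collect more reads. The length counts every annotated exon of a gene, 2177 bases for Sephs2 and 5925 for Sephs1. Which transcripts the cells used was not tested, so the order of genes depends on these lengths. Sephs2 had the highest level of the 9 genes, at 24.8 ± 4.51 CPM per kb (SD, n = 12 libraries), and Sephs1 followed at 12.3 ± 0.515. On this scale Sephs2 lay above Sephs1 in all 12 libraries, while in CPM not divided by length Sephs1 averaged 73.0 and Sephs2 54.0. Trnau1ap averaged 8.07 ± 0.843 and Eefsec 7.0 ± 0.796 CPM per kb, and these neighbours were in this order in 10 of 12 libraries. Secisbp2, at 4.22 ± 0.425, and Scly, at 3.85 ± 0.475, were the least separated pair, in this order in 8 of 12 libraries. Lrp8 had 3.23 ± 0.264, Sepsecs 2.66 ± 0.191 and Pstk 1.93 ± 0.119 CPM per kb, and the order of these 3 held in all 12 libraries. Sephs2 also had the largest SD on this scale.

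**Figure D1:**
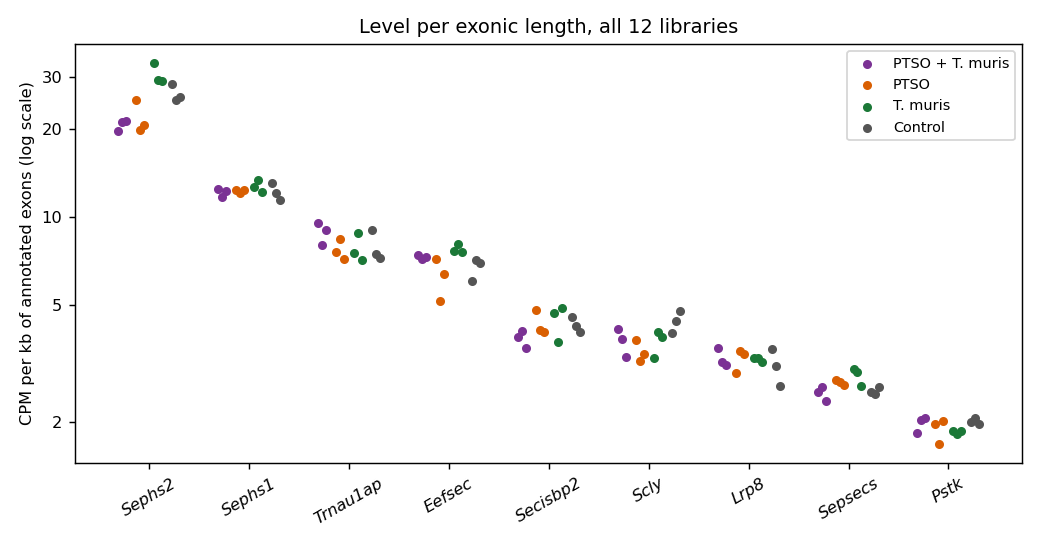
Level of each of the 9 genes in CPM per kb of annotated exons (log axis), 1 point per library, coloured by group. Sephs2 is highest in every library and shows the widest spread between groups, with the PTSO + T. muris libraries and PTSO libraries 2 and 3 at the bottom of its range and the T. muris libraries at the top.

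Sephs2 (ENSMUSG00000049091, chromosome 7, 1 exon) was lower with PTSO than without it. It had 42.7, 45.9 and 46.1 CPM in the PTSO + T. muris libraries, against 72.8, 63.8 and 63.1 CPM in the T. muris libraries. The groups did not overlap, and every T. muris library was well above every library with both agents. The log2 fold change was -0.57 (SE 0.0847, 95% interval -0.75 to -0.40), with an adjusted p of 0.00146 by edgeR's quasi-likelihood test. In this comparison 0.616% of the 15267 genes tested were called at an adjusted p under 0.05, and 0.386% were called lower. Sephs2 ranked 16 by p-value, and it was the 1 member of 9 that was called. Gm44729 on the opposite strand shares 36.4% of the exonic bases of Sephs2 and had 9 counts over all libraries, against 16645 for Sephs2.

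Without antigens, Sephs2 had 54.4, 43.2 and 44.6 CPM in the PTSO libraries and 62.0, 54.4 and 55.6 CPM in Control. PTSO library 1 and Control library 2 met at the same rounded level, and the other 2 PTSO libraries were lower than every control. The log2 fold change was -0.27 (SE 0.0842, 95% interval -0.45 to -0.10) and did not pass the test (adjusted p = 0.061, edgeR), in a comparison in which 5.25% of genes were called. The call depended on the test and on 1 library. DESeq2 gave an adjusted p of 0.0316 and edgeR with no filter on low counts 0.0042, at -0.27 in both, and without PTSO library 1 the value was -0.39, with an adjusted p of 0.0137. Without control libraries 2 and 3 it was also -0.39, with an adjusted p of 0.122 from a single control library.

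Averaged over both antigen conditions, Sephs2 fell with PTSO by 0.42 on the log2 scale (SE 0.0597, 95% interval -0.55 to -0.30, adjusted p = 0.000232, edgeR). It averaged 46.1 ± 4.26 CPM in the 6 libraries with PTSO and 62.0 ± 6.65 CPM in the 6 without (SD), a fitted difference of -25.4%. All 6 libraries with PTSO were lower than all 6 without, although the nearest pair met at the rounded 54.4 CPM. Such a separation was found for 2.62% of genes, for 1.44% in the downward direction, and 6.51% of genes were called, 3.71% lower. Without control libraries 2 and 3 the change was -0.48 (adjusted p = 1.91e-05), and over all libraries left out in turn it stayed between -0.48 and -0.39 and was called each time.

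**Figure D2:**
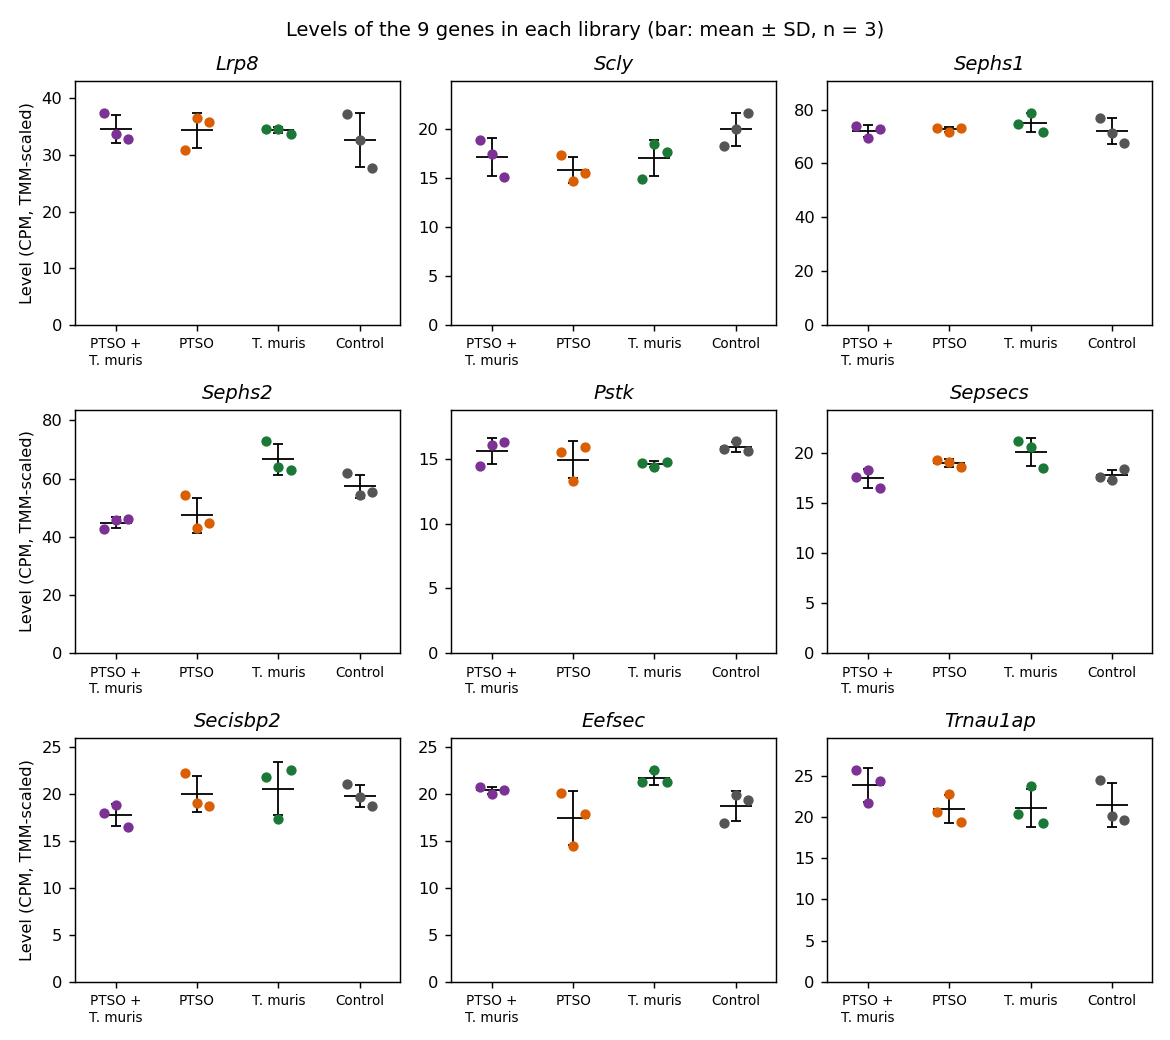
TMM-scaled CPM of each of the 9 genes in each library (1 point each, axes from 0), with the mean as a horizontal line and the SD as bars, n = 3 libraries a group. Sephs2 is the 1 gene whose PTSO and PTSO + T. muris libraries all sit below the T. muris and Control libraries. In every other gene the libraries with and without PTSO overlap, although some pairs of groups in Scly, Sepsecs, Pstk and Eefsec do not.

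The antigens alone did not change Sephs2 beyond the threshold. T. muris libraries, at 63.1 to 72.8 CPM, were all higher than controls, at 54.4 to 62.0 CPM, with a log2 fold change of 0.22 (SE 0.0835, adjusted p = 0.106, edgeR). In that comparison 6.35% of genes were called and 22.9% had groups that did not overlap. The value depended on the controls: without control libraries 2 and 3 it was 0.11 (adjusted p = 0.998), and without Control library 1 it was 0.28 (adjusted p = 0.0122). With no filter on low counts it was 0.22 and called (adjusted p = 0.0261). With PTSO present, the antigens made a log2 difference of -0.08 (95% interval -0.26 to 0.10, adjusted p = 0.898). The antigen effect averaged over both PTSO conditions was 0.07 (95% interval -0.05 to 0.19, adjusted p = 0.514), and 0.02 without control libraries 2 and 3.

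Against Control, PTSO + T. muris libraries had less Sephs2, with a log2 fold change of -0.35 (SE 0.0849, 95% interval -0.53 to -0.18, adjusted p = 0.00892, edgeR). In that comparison 16.7% of all genes were called, 8.85% of all genes lower, so a call there was common. Without control libraries 2 and 3 the value was -0.46 (adjusted p = 0.0202), and without PTSO + T. muris library 1 it was -0.32 and no longer called (adjusted p = 0.0566). The PTSO effect with antigens minus that without them, the interaction, was -0.30 (SE 0.119, 95% interval -0.55 to -0.05). Its unadjusted p was 0.0215 and its adjusted p 0.644 by edgeR, so the PTSO effects with and without antigens were not shown to differ. Without Control library 1 the interaction was -0.36 with an adjusted p of 0.0469, and without control libraries 2 and 3 it was -0.18 with an adjusted p of 1.

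Sephs1 (ENSMUSG00000026662), whose protein shares the fold of SEPHS2 without its selenophosphate synthesis, had nearly the same level in all groups. Its libraries had 73.9, 69.4 and 72.7 CPM with PTSO + T. muris, 73.2, 71.7 and 73.4 with PTSO, 74.8, 78.8 and 71.7 with T. muris and 77.0, 71.4 and 67.6 in Control. The PTSO effect over both conditions was -0.02 on the log2 scale, with a 95% interval of -0.11 to 0.06, and -0.07 without control libraries 2 and 3 (adjusted p = 0.513). The ratio of Sephs2 to Sephs1 counts within a library, chosen after the values were seen and given with no test, needs no scaling between libraries. It was 0.578, 0.661 and 0.634 with PTSO + T. muris, 0.743, 0.602 and 0.608 with PTSO, 0.974, 0.810 and 0.880 with T. muris and 0.804, 0.762 and 0.822 in Control. The 6 libraries with PTSO had the 6 lowest ratios.

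Of the genes of selenium supply, Lrp8 (ENSMUSG00000028613), the selenoprotein P receptor of mouse brain and testis, did not differ between groups beyond its spread. It had 37.4, 33.7 and 32.7 CPM with PTSO + T. muris, 30.8, 36.5 and 35.7 with PTSO, 34.6, 34.6 and 33.7 with T. muris and 37.3, 32.7 and 27.7 in Control. The controls alone spanned nearly the whole range of the gene. Its PTSO effect over both conditions was 0.05 (95% interval -0.10 to 0.19), and -0.05 without control libraries 2 and 3.

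Scly (ENSMUSG00000026307), the lyase that recovers selenium, was highest, on average, in the controls. It had 18.9, 17.4 and 15.1 CPM with PTSO + T. muris, 17.3, 14.7 and 15.5 with PTSO, 15, 18.5 and 17.6 with T. muris and 18.3, 20.0 and 21.7 in Control. The PTSO libraries were all below the controls, with a log2 fold change of -0.34 (95% interval -0.57 to -0.11) that did not pass the test (adjusted p = 0.0768, edgeR). The T. muris value against Control was -0.24 (adjusted p = 0.189), with T. muris library 2 above Control library 1. The interaction for Scly was 0.36 (unadjusted p = 0.0355, adjusted p = 0.644). The PTSO value for Scly depended on the controls and the test. It was -0.21 without control libraries 2 and 3 (adjusted p = 0.824) and -0.40 without Control library 1 (adjusted p = 0.0107), and over all libraries it was called by DESeq2 (adjusted p = 0.0419) and by edgeR with no filter (adjusted p = 0.0483). The T. muris value was -0.11 and the interaction 0.23 without control libraries 2 and 3.

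The 3 genes that act on tRNA(Sec) showed small differences. Sepsecs (ENSMUSG00000029173), the enzyme of the last step to selenocysteine, had 17.7, 18.3 and 16.5 CPM with PTSO + T. muris, 19.3, 19.1 and 18.6 with PTSO, 21.2, 20.6 and 18.5 with T. muris and 17.7, 17.3 and 18.4 in Control. Either agent alone lay above the controls and the 2 together did not. The PTSO effect on Sepsecs was -0.21 with antigens (95% interval -0.39 to -0.02, adjusted p = 0.481) and 0.10 without (adjusted p = 0.577), and the interaction of -0.30 had an unadjusted p of 0.0266 and an adjusted p of 0.644. Without control libraries 2 and 3 the effect without antigens was 0.11 and the interaction -0.31, neither called.

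Trnau1ap (ENSMUSG00000028898), which encodes a protein bound to tRNA(Sec), had 25.8, 21.7 and 24.4 CPM with PTSO + T. muris, 20.6, 22.8 and 19.5 with PTSO, 20.3, 23.8 and 19.3 with T. muris and 24.5, 20.2 and 19.7 in Control. Its highest value was in a PTSO + T. muris library, but each pair of groups overlapped. Pstk (ENSMUSG00000063179) encodes the kinase that phosphorylates the serine on tRNA(Sec). It had 14.5, 16 and 16.3 CPM with PTSO + T. muris and 15.5, 13.3 and 15.9 with PTSO. It had 14.7, 14.3 and 14.8 CPM with T. muris and 15.7, 16.3 and 15.6 in Control. Its T. muris libraries were all lower than its controls, by 0.12 on the log2 scale (adjusted p = 0.473), a value of -0.11 without control libraries 2 and 3. Pstk counts are uncertain, because 58.8% of its exonic bases are shared with Ikzf5 on the opposite strand and 951 of its bases have a copy in Gm10356 at 99.3% identity. Ikzf5 had 592 counts over all libraries and Gm10356 had 111, against 4651 for Pstk.

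Secisbp2 (ENSMUSG00000035139), which encodes the SECIS-binding protein, had 18, 18.8 and 16.5 CPM with PTSO + T. muris, 22.2, 19.1 and 18.8 with PTSO, 21.8, 17.3 and 22.6 with T. muris and 21.0, 19.7 and 18.7 in Control. The combined treatment held its lowest value, but PTSO library 3, T. muris library 2 and Control library 3 lay within the range of that group. The PTSO effect with antigens was -0.21 (95% interval -0.43 to 0.02, adjusted p = 0.604). Eefsec (ENSMUSG00000033216), the elongation factor, had 20.8, 20.0 and 20.5 CPM with PTSO + T. muris, 20.1, 14.4 and 17.8 with PTSO, 21.4, 22.6 and 21.3 with T. muris and 16.9, 19.9 and 19.4 in Control. Both groups given antigens were above Control in every library. The antigen effect on Eefsec over both PTSO conditions was 0.22 (SE 0.0759, 95% interval 0.06 to 0.38) and did not pass the test (adjusted p = 0.0844, edgeR), in a comparison in which 5.19% of genes were called. It was 0.30 without control libraries 2 and 3 (adjusted p = 0.156) and was called by DESeq2 over all libraries (adjusted p = 0.0475). Only PTSO library 1, at 20.1 CPM, kept the 6 libraries with antigens and the 6 without from separating, as they did for 1.68% of genes and for no member.

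Across the 8 comparisons, no member other than Sephs2 was called. Sephs2 was called in 3 of them, which were the PTSO effect with antigens, the combined treatment against Control, and the PTSO effect averaged over both conditions. In PTSO + T. muris against PTSO and in the interaction edgeR called no gene of the 15267 (0%), although 932 and 1181 genes had an unadjusted p under 0.05 and DESeq2 called 15 and 4. The numbers of members whose groups did not overlap were 3 of 9 in PTSO + T. muris against T. muris, where 18.7% of all genes did the same, 3 of 9 in PTSO against Control (20.6%) and 4 of 9 in T. muris against Control (22.9%). They were 1 of 9 in PTSO + T. muris against PTSO (15.4%) and 2 of 9 in PTSO + T. muris against Control (29.4%). For the 8 members other than Sephs2, the PTSO effect over both conditions was between -0.16 and 0.07, every 95% interval lay between -0.32 and 0.23, and adjusted p-values were 0.249 to 0.993. These 8 effects were between -0.14 and 0.01 without control libraries 2 and 3. The median over all 9 was -0.06, beside 0.00 over all genes tested. Whether Sephs2 differed from the other 8 members as a group was not tested.

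**Figure D3:**
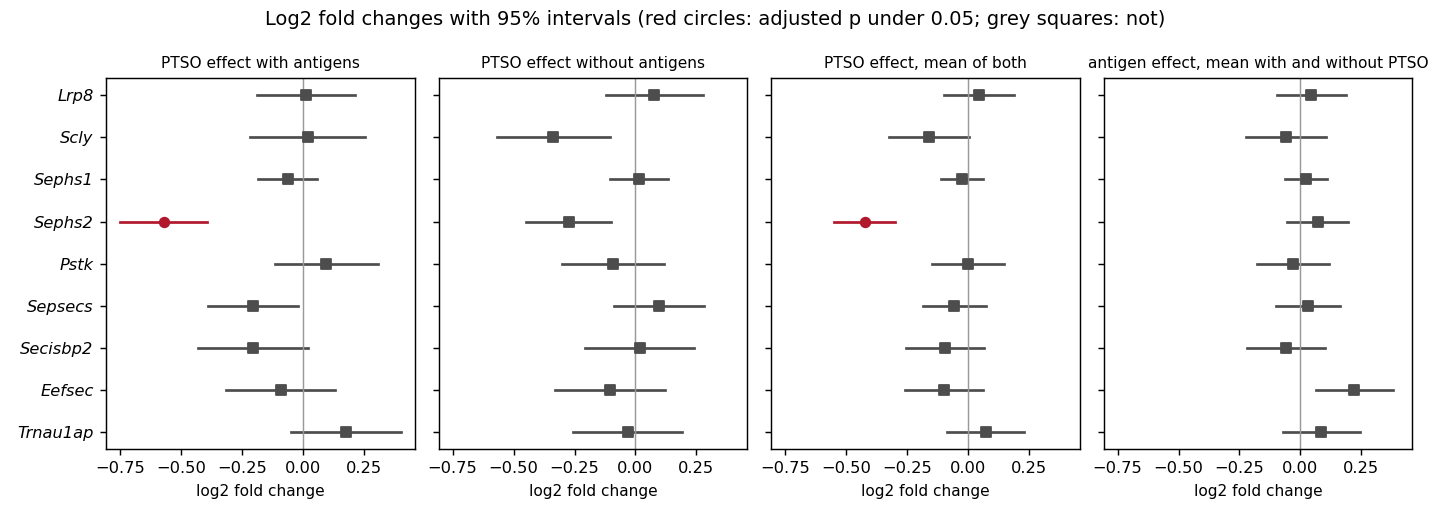
Log2 fold change of each of the 9 genes (point) with its 95% interval (line) for 4 comparisons, from edgeR. Red circles mark an adjusted p under 0.05 over all genes tested: Sephs2 at -0.57 for PTSO with antigens and at -0.42 for the mean of both, with no other member marked.

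The mRNAs of selenoproteins, whose translation needs the machinery, moved in more than 1 direction. Selenoprotein levels were not measured here. Of 24 selenoprotein genes listed, Sephs2 among them, 21 were tested, and Dio1, Dio3 and Selenov were too low. With antigens present, PTSO raised Gpx1 by 0.81, Selenow by 1.46 and Selenoh by 1.25 on the log2 scale, and Sephs2 was the only one of the 21 called lower. Values were below 0 in 11 of the 21. Without antigens 5 rose and 1 fell: Gpx1 by 0.76, Selenow and Selenoh by 1.26 each, Txnrd1 by 0.38 and Selenof by 0.18 were the rises, and Gpx3 fell by 0.83. Averaged over both, PTSO raised 6 (with Selenok at 0.16 added to those 5) and lowered Sephs2 and Gpx3 (-0.65). The median over the 21 genes was 0.02 in that comparison, beside 0.00 over all genes. Of all genes tested, 0.616% were called for PTSO with antigens, 5.25% without them and 6.51% averaged over both.

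Gpx1, a cytosolic glutathione peroxidase, had 301 to 353 CPM in the 6 libraries with PTSO and 178 to 201 CPM in the 6 without. Selenow, a small redox protein of the cytosol, had 88.5 to 99.6 CPM with PTSO and 32.0 to 44.9 without, and Selenoh, a nuclear redox protein, 57.8 to 75.0 with PTSO and 24.0 to 32.1 without. These 3 separated fully in the direction opposite to Sephs2, and so did Txnrd1 and Selenok by narrower gaps. Txnrd1 had at least 238 CPM with PTSO and at most 235 without, and Selenok at least 48.9 and at most 47.4. Gpx3 separated downward like Sephs2, with at most 2.23 CPM with PTSO and at least 2.54 without. Of all genes tested, 2.62% separated in this way, in either direction. Leaving out control libraries 2 and 3, a check added after seeing the data, kept a single control library. Calls over all genes were then far fewer in the comparisons with Control, so calls lost there are not a result about these genes. The selenoprotein genes still called in PTSO against Control were Gpx1, Selenoh and Selenow. The PTSO effect with antigens, where calls over all genes became more numerous, then gained Txnrd1 and Dio2. The averaged PTSO effect, where they became fewer, lost Gpx3 and Selenof and gained Dio2. The antigens raised the mRNAs of 3 selenoproteins and lowered that of 1 against Control, where 6.35% of all genes were called. These were Gpx2, the gastrointestinal glutathione peroxidase, at 0.73, Txnrd1 at 0.27, Selenof at 0.16 and Selenoo at -0.41. These 4 calls were not made without control libraries 2 and 3, where few genes of any kind were called in this comparison. With the combined treatment against Control, 16.7% of all genes were called. The combined treatment gave 6 rises and 3 falls, the falls being Sephs2, Gpx3 (-0.88) and Selenop (-0.68), the selenium carrier that LRP8 takes up. Without those controls, and with far fewer calls over all genes, Gpx1, Selenoh, Selenow, Txnrd1 and Sephs2 were called, Sephs2 alone as a fall.

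**Figure D4:**
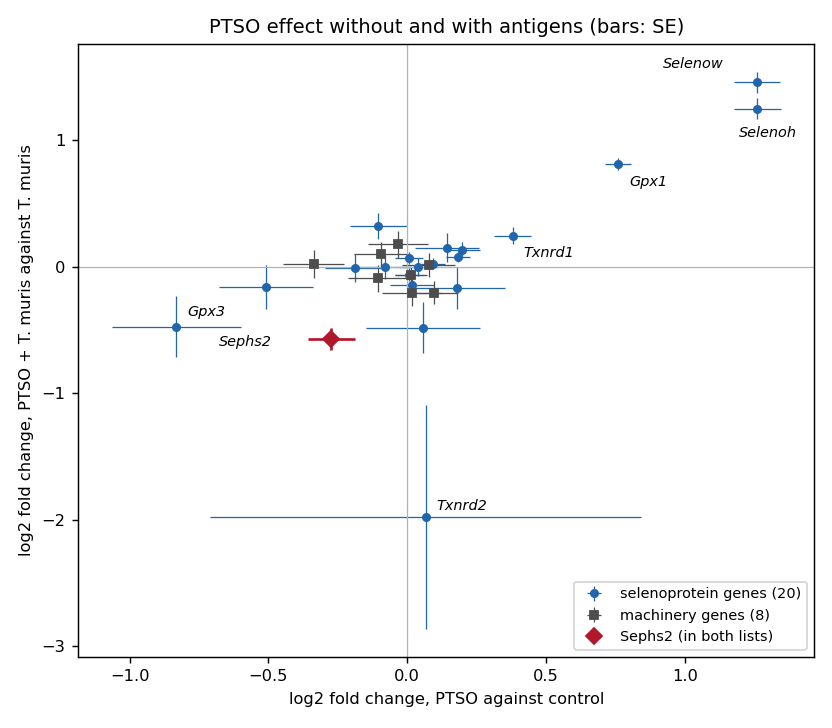
PTSO effect without antigens (x axis, PTSO against Control) and with antigens (y axis, PTSO + T. muris against T. muris) as log2 fold changes with SE bars, for 20 selenoprotein genes, the 8 other machinery genes and Sephs2, which is in both lists. Selenow, Selenoh and Gpx1 lie at the upper right, Sephs2 lies below 0 on both axes, and most machinery genes cluster near 0. Txnrd2, at -1.98 with antigens, has an SE of 0.886 there and was not called. The axes share no library.

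Further genes of selenium handling and UGA recoding were examined as a list of 16 symbols, of which 14 were tested. They include the receptors Lrp1 and Lrp2, the seryl-tRNA synthetase Sars, the tRNA-modifying enzymes Trit1 and Alkbh8, and Cbs and Cth of transsulfuration. The listed symbol Sars1 had no line in the read counts, which hold this synthetase as Sars, and Inmt was too low to be tested. No gene of this list was called for the PTSO effect with antigens, without them or averaged, and the median log2 fold changes were -0.03, -0.01 and -0.02. Of all genes tested, 6.35% were called for the antigens against Control, 16.7% for both agents against Control and 5.19% for the averaged antigen effect. Against Control, T. muris antigens lowered Lrp1, an endocytic receptor, by 0.80 and Cbs, which makes cystathionine, by 0.50. With both agents Lrp1 (-0.69), Lrp2 (-0.32), Selenbp1 (-0.87) and Cbs (-0.36) were lower than in Control. These 6 calls were not made without control libraries 2 and 3, where a single control library remained and calls over all genes were far fewer. The antigen effect averaged over both PTSO conditions lowered Lrp1 by 0.66 and Lrp2 by 0.26, of which Lrp1 was also called without those controls. In PTSO + T. muris against PTSO, Lrp2 was called lower without those controls, where calls over all genes were more numerous, but not over all libraries.

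Selenoprotein mRNAs can be broken down by nonsense-mediated decay, which can read the UGA as a premature stop, and 16 genes of that pathway were tested. PTSO averaged over both conditions, where 6.51% of all genes were called, gave 1 call among the 16. Upf1, the helicase of the pathway, rose by 0.13 (adjusted p = 0.0423, edgeR). Of the 16 values, 15 were above 0, with a median of 0.07. No gene of the pathway was called for PTSO with or without antigens taken singly. PTSO + T. muris against Control, where 16.7% of all genes were called, gave 4 rises and 1 fall. The rises were Upf3a at 0.28, Rbm8a at 0.25, Magoh at 0.24 and Upf1 at 0.20, and the fall was Smg6 at -0.25. None of these calls was made without control libraries 2 and 3, with a single control library left and fewer calls over all genes in both comparisons. The averaged antigen effect on the kinase Smg1, -0.21 over all libraries (adjusted p = 0.0203, edgeR), was still called there. Smg1 was also called lower there in PTSO + T. muris against PTSO, where calls over all genes were more numerous.

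The genes whose level ran most like that of each member over the 12 libraries were ranked by Pearson's r of log2 CPM, as a description with no p. These libraries share their groups and their scaling. For Sephs2, Cdh3, a cadherin, was among them (r = 0.930). For Lrp8 they were Timm9 (0.950) and Nup153 (0.938), for Scly Ugt2b36 (0.921) and Cpne5 (0.913), and for Eefsec Blvrb and Gm26549 (0.901 each). Sephs1 ran most like Reep5 (0.899), Pstk like Ly6d (0.869), Sepsecs like Rps6kb1 (0.861), Trnau1ap like Gm5558 (0.900) and Secisbp2 like Gm2225 (0.845). Among the members themselves the highest r was 0.610, between Sephs1 and Lrp8, and the lowest was -0.560, between Pstk and Sepsecs. Sephs2 had its highest r within the set with Secisbp2, at 0.553.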

How the data were processed

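RNA of 12 libraries was measured as raw read counts per gene, deposited by the authors as 1 table. HISAT, DESeq2 and mm39 are named, without versions, in the submitters' processing notes. For the counting program, annotation release and strand, the sources used here give nothing. Low genes were dropped by edgeR 4.0.16 (filterByExpr, minimum count 10), leaving 15267 genes with 99.9% of the counts. Libraries were scaled by TMM, and 1 negative binomial model with a coefficient per group (8 residual degrees of freedom) was tested by edgeR's quasi-likelihood F-test with Benjamini-Hochberg adjustment over all genes tested. Calls were made below an adjusted p of 0.05. The SE is the log2 fold change divided by the square root of F. The 8 comparisons include the PTSO and antigen effects averaged over both conditions and the interaction. CPM values are TMM-scaled. Exon lengths, overlaps and sequences came from GENCODE M21 on GRCm38, an earlier build than mm39, matched by gene identifier, and near copies were found with BLAST 2.17.0. DESeq2 1.42.0, other scaling, no filter, a replicate block, subsets of libraries and each library left out served as alternatives. Named genes were all members, the called genes of the 3 lists, and for each member the most similar genes by r, not all of which are reported here. Members and lists were chosen with earlier results of these data known. R 4.3.3 and matplotlib 3.10.9 were used.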

Additional observations from a re-analysis of the deposited data

How the results depend on the processing

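Sephs2 kept its fall and its call in PTSO + T. muris against T. muris under all 18 alternatives and in the averaged PTSO effect under all 17, with 1 member called each time, and its log2 fold change was -0.61 to -0.50 and -0.48 to -0.39 with single libraries left out. The other counts below depend on the setting, and the cause was not tested. In PTSO against Control, 802 genes and 0 members were called; DESeq2 called 1544 genes and 2 members (Sephs2 and Scly), no filter 1728 and 2, the 6 libraries compared alone 46 genes, and the set without control libraries 2 and 3 77 genes. In T. muris against Control, 969 genes became 1960 with DESeq2, 2063 without a filter (1 member), 1 with only the libraries compared and 8 without control libraries 2 and 3. In PTSO + T. muris against T. muris, 94 became 195, 249, 479 and 425 in the same order, and in PTSO + T. muris against PTSO, 0 became 15, 42, 34 and 80. In PTSO + T. muris against Control, 2554 became 864 with only the libraries compared and 204 without control libraries 2 and 3. The averaged PTSO effect had 994 genes, and 1637 with no filter and 527 without these controls. The averaged antigen effect had 792 genes, and 1692 with DESeq2 (1 member, Eefsec at 0.22 with an adjusted p of 0.0475), 1816 with no filter and 79 without these controls. For the interaction, 0 genes became 4 with DESeq2, 45 with no filter and 1 without these controls. Leaving out single libraries gave 165 to 3637 genes and 0 to 1 members in PTSO against Control, 2 to 4044 and 0 to 1 in T. muris against Control, 23 to 371 genes in PTSO + T. muris against T. muris, 0 to 36 in PTSO + T. muris against PTSO, 990 to 4799 and 0 to 1 members in PTSO + T. muris against Control, 501 to 3169 genes for the averaged PTSO effect, 55 to 3718 for the averaged antigen effect, and 0 to 1279 genes and 0 to 1 members for the interaction. The highest of each of these gene counts came without Control library 1.

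Over 18 pairs of same-numbered libraries of different groups, r was -0.06 to 0.10, none over 0.1. Of the 12 libraries, 6 correlated best with their own number. Low correlations over all genes cannot exclude pairing, which the sample labels do not settle. The main model took the libraries as unpaired. A replicate block called Sephs2 in PTSO against Control (-0.28, adjusted p = 0.0368; 1 member) and 1 gene in the interaction, and left the other calls of members as they were. Members had 245 to 2559 counts in a library. With 3 libraries a group and adjustment over all genes tested, small differences can go uncalled, and the 95% intervals give the range of sizes that the values allow.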
